A study of Homo sapiens with 30 samples.

Results

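The expression of 10 amino acid transporter genes was examined in 2 pancreatic ductal adenocarcinoma (PDAC) cell lines after siRNA transfection. The genes were taken by symbol from a table of 24895 gene entries, and each symbol matched 1 entry. They were SLC7A5 and its partner SLC3A2, the other transporters SLC7A11, SLC7A6, SLC7A1, SLC1A5, SLC1A4, SLC38A1 and SLC38A2, and the betaine and GABA carrier SLC6A12. The choice was made with results of these libraries known, namely the low level of SLC7A5 after siKCNN4. Differences after siKCNN4, and that of SLC6A12 after siDDX60L in MiaPaCa2, are therefore given as descriptions with no test. The study asked what 4 genes linked to PDAC do in these cells. MiaPaCa2 and PANC-1 are both established human PDAC lines. Each received an siRNA that targets DDX60L, MYEOV, KCNN4 or S100A16, or a control siRNA (siControl), and RNA was sequenced at a single time point. This gave 10 groups of 3 libraries, 30 libraries in all, with 15 libraries in each line. All cells were grown in medium with added glutamine and serum, and each line is a single established culture.

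Amino acids cross the plasma membrane through carriers of several families. SLC7A5 (LAT1) brings in leucine and other large neutral amino acids, mostly in exchange for glutamine, and reaches the cell surface only when bound to the glycoprotein SLC3A2 (CD98 heavy chain). SLC3A2 also carries SLC7A11 and SLC7A6. Leucine taken up in this way feeds protein synthesis and the growth kinase complex mTORC1, and SLC7A5 is abundant in many carcinomas, those of the pancreas included. When amino acids run short, the transcription factor ATF4 raises several of these carriers together with the enzymes that make amino acids and charge tRNAs.

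In the GRCh37 annotation all 10 genes were protein-coding. SLC7A5 lay at chr16:87863629-87903113 on the minus strand and SLC3A2 at chr11:62623476-62656352 on the plus strand. SLC7A11 lay at chr4:139085251-139163503, SLC7A6 at chr16:68298419-68335726 and SLC7A1 at chr13:30083551-30169825. SLC1A5 lay at chr19:47278140-47291851 and SLC1A4 at chr2:65215611-65250999. SLC38A1 at chr12:46576846-46663800 and SLC38A2 at chr12:46751971-46766556 lay close to each other, and SLC6A12 lay at chr12:299243-323736. The gene span of SLC7A6 overlapped SLC7A6OS on the opposite strand by 17321 bases. SLC7A6OS, measured in FPKM, a unit that divides fragments by gene length and by the mapped total of the library, averaged 7.07 over the 30 libraries. The strand setting of the counting is not given in the sources used here, so reads from the overlap cannot be told apart.

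Promoters from RefSeq (build GRCh38.p14), each with 250 bases before and 50 after a start site, were available for 8 of the 10 genes, and SLC7A11 and SLC6A12 were the others. The SLC7A5 promoter is shown because the differences in SLC7A5 are the main subject here. It spans chr16:87869458-87869757 (GRCh38.p14, minus strand), 80.3% of it is G or C, and the capitals mark CACGTG, the E-box that MYC family proteins bind:
SLC7A5 promoter: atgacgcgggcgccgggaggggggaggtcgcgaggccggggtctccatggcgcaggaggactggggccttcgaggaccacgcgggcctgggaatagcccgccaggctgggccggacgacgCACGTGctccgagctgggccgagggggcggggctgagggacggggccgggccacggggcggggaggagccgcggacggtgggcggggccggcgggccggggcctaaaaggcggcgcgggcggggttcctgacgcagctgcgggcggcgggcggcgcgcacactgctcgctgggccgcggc
The E-box began at position -130 from the start. CACGTG was found in 7.26% of 35116 promoters, and among the 8 genes with a promoter also in 1 of 3 promoters of SLC1A5. TGATGNAA, the core of the element that ATF4 binds with C/EBP proteins, was searched on both strands and was found in 3.62% of the 35116 promoters. It was present in at least 1 promoter of 5 of the 8 genes, against 4.46% of 27305 genes. Genes with more promoters had more windows in which to match. SLC3A2 and SLC1A5 had 3 promoters each, SLC1A4 and SLC38A1 had 2 each, and SLC7A5, SLC7A6, SLC7A1 and SLC38A2 had 1 each. A match is a description and not a binding site. The matches are shown with up to 12 bases on either side and with the motif in capitals, which in SLC3A2 and SLC1A4 is its reverse complement:
SLC3A2 chr11:62881724-62881748 plus strand: gtgcaggactccTTACATCAgctcc
SLC7A1 chr13:29595662-29595693 minus strand: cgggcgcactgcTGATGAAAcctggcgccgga
SLC1A5 chr19:46784892-46784923 minus strand: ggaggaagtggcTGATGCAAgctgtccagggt
SLC1A4 chr2:64989380-64989411 plus strand: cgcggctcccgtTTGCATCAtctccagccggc
SLC38A1 chr12:46266501-46266532 minus strand: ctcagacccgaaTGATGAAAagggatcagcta
The SLC7A5, SLC7A6 and SLC38A2 promoters held no TGATGNAA, and no match says only that these letters were not in the window.

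Small interfering RNAs can also lower RNAs that match the seed of their guide strand, bases 2 to 8. The study's supplement lists several siRNAs for DDX60L and MYEOV, and those that its text names as effective are shown, since the labels do not say which were used here. The sense strand of 19 bases is given as DNA, and the capitals mark the stretch that pairs with the seed:
siDDX60L: gagcttgttctCGAGTCAt
siMYEOV: ggaggacacgcAAGTTCAg
The whole siDDX60L sequence matched only DDX60L among annotated transcripts, in coding exon 8 of its 38 exons at chr4:169374318-169374336 (GRCh37). The whole siMYEOV sequence matched only MYEOV, in the last exon at chr11:69064185-69064203, within the 3′ UTR of its coding transcripts that matched. It also matched a MYEOV transcript with no coding part, and no matching MYEOV transcript was the one annotated as canonical. The seed target of siDDX60L occurred in 1.63% of 19085 annotated 3′ UTRs and that of siMYEOV in 12.3%. SLC7A5 and SLC3A2 held neither. For siDDX60L, SLC7A1 held 2 sites, the first at chr13:30087743-30087749. For siMYEOV, SLC38A1 held 2 sites, and SLC6A12 and SLC7A6 held 1 each. The first site in each gene is shown with the seed target in capitals:
SLC7A1, siDDX60L: atggtggcCGAGTCAgaagtctg
SLC38A1, siMYEOV: aaacacatAAGTTCActgagcac
SLC6A12, siMYEOV: actttttcAAGTTCAcatgggga
SLC7A6, siMYEOV: ggaaagctAAGTTCAgaaggtac
The sequences of siKCNN4 and siS100A16 were not analysed here.

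The FPKM sum of a library was 395879 to 416201 in MiaPaCa2 and 375091 to 407738 in PANC-1. Read totals were not recoverable from FPKM, and the study's text gives typical read numbers without those of each library, so the depth behind a single value is unknown. Each targeted gene was lower than siControl in all 3 of its libraries in both lines, at 4.95 to 36.5% of the siControl mean in MiaPaCa2 and 18.1 to 47.5% in PANC-1. Under siControl, MYEOV averaged only 0.803 FPKM in MiaPaCa2, against 23.9 in PANC-1, and DDX60L averaged 1.95 and 1.31. Targets also differed after other siRNAs. In PANC-1, MYEOV was at 61.9% of siControl after siDDX60L and 204% after siS100A16, and S100A16 at 270% after siKCNN4. KCNN4 itself was at 36.5% after siKCNN4 in MiaPaCa2 and 47.5% in PANC-1. Of 6 ductal epithelial markers, KRT8, KRT18 and KRT19 reached 1 FPKM in every MiaPaCa2 group and the other 3 did not, whereas 5 or 6 did in PANC-1. The summed level of the 6 markers in MiaPaCa2 was 2025 to 2171 FPKM after siControl, 1800 to 1896 after siDDX60L, 579 to 653 after siMYEOV, 1026 to 1110 after siKCNN4 and 2009 to 2055 after siS100A16. In PANC-1 it was 3137 to 3389 FPKM after siControl, 1283 to 1363 after siDDX60L, 1008 to 1143 after siMYEOV, 1385 to 1506 after siKCNN4 and 2200 to 2325 after siS100A16. Of 8 fibroblast markers 1 to 3 reached 1 FPKM, and their sum in MiaPaCa2 was 73.8 to 79.8 FPKM after siControl and 23.3 to 25.9 after siS100A16, the lowest group. Of 7 leukocyte markers 1 to 3 did, and their sum in PANC-1 was 36.1 to 39.9 FPKM after siControl and 81.8 to 85.95 after siKCNN4, the highest group. Of 5 endothelial markers at most 1 did. The part of these differences in the results was not tested. None of 8 acinar or islet markers reached 1 FPKM in any group. In bulk RNA, fewer cells expressing a gene and less RNA per cell cannot be told apart. The study's methods speak of replicates and, for its experiments in general, of independent repeats, but the labels do not say that these libraries came from separate cultures, so the p values measure only the spread among these libraries, which may be technical.

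In siControl cells the mean level of the carriers ranged from 1.09 to 118 FPKM in MiaPaCa2 and from 0.507 to 148 FPKM in PANC-1. SLC7A5 averaged 97.5 ± 4.77 FPKM (SD, n = 3) in MiaPaCa2 and 148 ± 3.38 in PANC-1, above 95.3 and 97.5% of the genes that reached 1 FPKM. SLC38A2, a sodium-coupled carrier of glutamine and other small neutral amino acids, was at 118 ± 3.06 and 108 ± 1.56 FPKM, above 96.3% of genes in both lines. SLC3A2 (50.7 ± 1.28 and 81.8 ± 6.86 FPKM) and the glutamine carrier SLC1A5 (62.0 ± 5.13 and 55.9 ± 1.22 FPKM) followed. At the low end, SLC6A12 averaged 0.507 FPKM in PANC-1, SLC7A11 in MiaPaCa2 was above 1.28% of genes, and SLC1A4 was above 12.2 and 12.9% of genes in MiaPaCa2 and PANC-1. FPKM is scaled by gene length, so levels can be set beside each other, as in the plot of each gene by library.

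**Figure D1:**
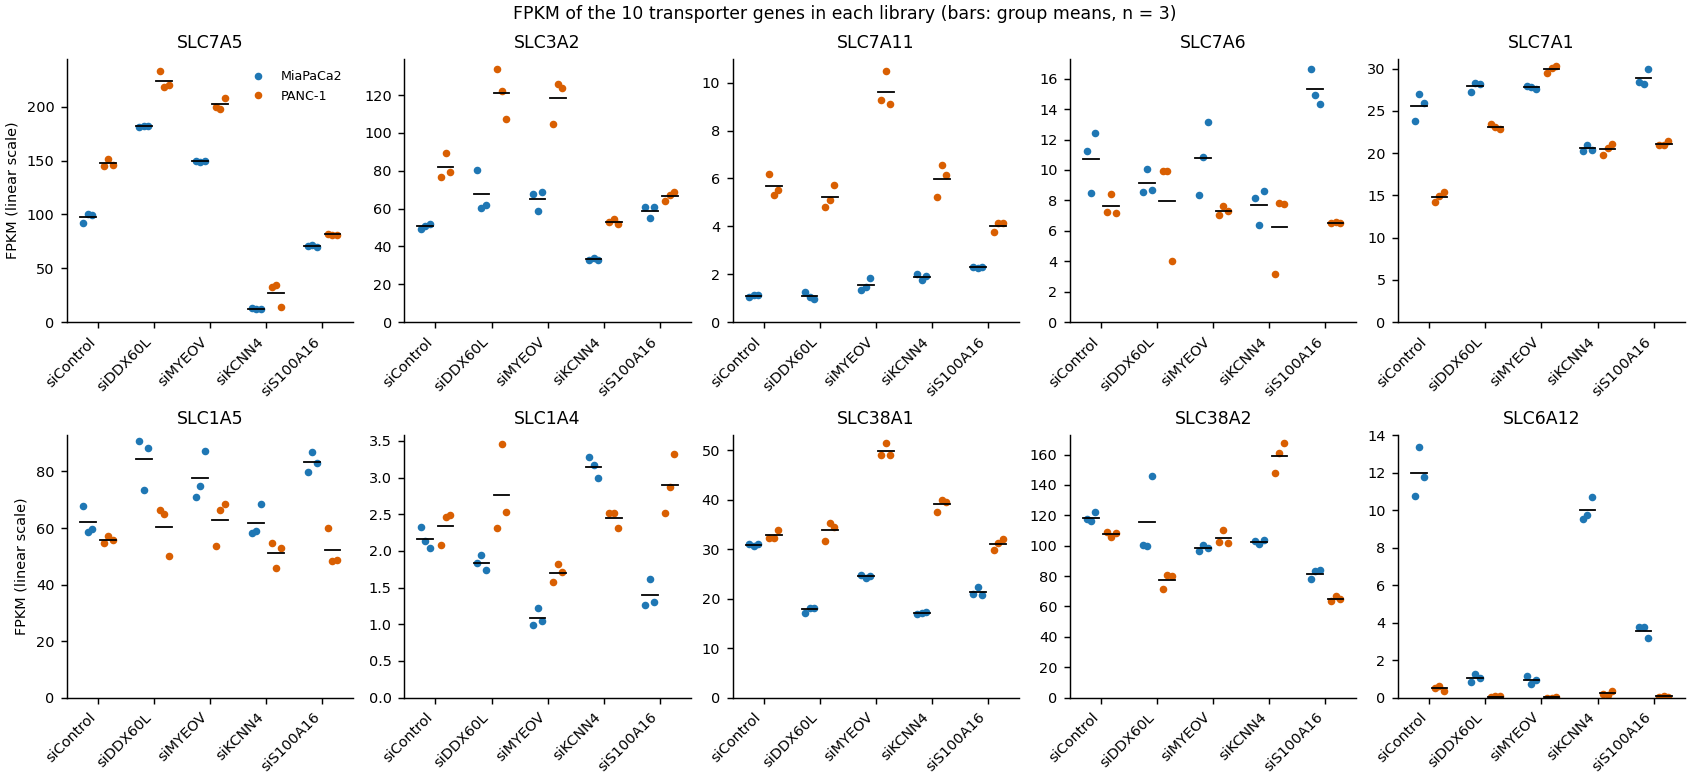
FPKM (linear axis, from 0) of each of the 10 genes in the 15 MiaPaCa2 and 15 PANC-1 libraries, grouped by siRNA, with points for libraries and bars for group means (n = 3). The SLC7A5 libraries after siKCNN4 (12.2 to 12.8 FPKM in MiaPaCa2, 14.2 to 34.1 in PANC-1) lie below all others of their line, and SLC6A12 lies above 3 FPKM only in MiaPaCa2 after siControl, siKCNN4 and siS100A16.

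After siKCNN4, SLC7A5 was the transporter gene furthest from siControl in both lines, and its partner SLC3A2 was lower by a smaller factor. In MiaPaCa2 the siControl libraries held 92.0, 101 and 99.5 FPKM of SLC7A5 and the siKCNN4 libraries 12.8, 12.2 and 12.5. The groups were far apart and each was tight, with siKCNN4 at 12.8% of siControl or 7.79-fold lower. In PANC-1 the siControl libraries held 145, 151 and 146 FPKM and the siKCNN4 libraries 32.9, 34.1 and 14.2. The groups again did not overlap, but the third siKCNN4 library lay well under its mates, and the mean was 18.3% of siControl or 5.45-fold lower. For SLC3A2 in MiaPaCa2 the values were 49.3, 50.8 and 51.9 FPKM after siControl and 33.0, 33.7 and 32.9 after siKCNN4. In PANC-1 they were 76.7, 89.6 and 79.1 FPKM against 52.9, 54.6 and 51.9. SLC3A2 thus held 65.5 and 64.9% of its siControl mean in MiaPaCa2 and PANC-1, again with no overlap, and the third PANC-1 library was like its mates for this gene. On the log2(FPKM + 1) scale, which understates differences in genes expressed near 1 FPKM or lower, the differences after siKCNN4 were -2.86 (SE 0.04) for SLC7A5 and -0.60 (SE 0.09) for SLC3A2 in MiaPaCa2, and -2.50 (SE 0.23) and -0.61 (SE 0.09) in PANC-1. Without the third PANC-1 library the SLC7A5 difference was -2.11 (SE 0.04). In that library 33 of 8579 genes with at least 5 FPKM in both mates were under 0.5 times the level of each mate (0.385%), against 16 to 44 genes over the 30 libraries, and SLC7A5 was among such genes in no other library. Its KCNN4 level of 6.39 FPKM was the lowest of the PANC-1 siKCNN4 libraries.

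**Figure D2:**
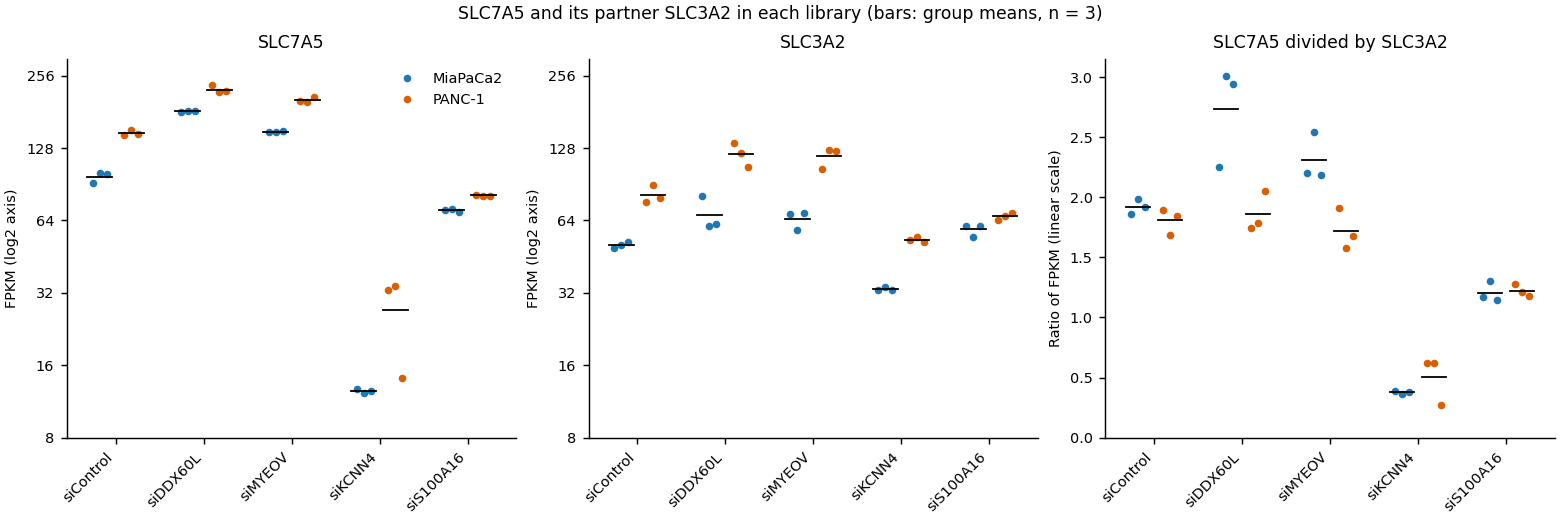
SLC7A5 and SLC3A2 (FPKM, log2 axes) and SLC7A5 divided by SLC3A2 (ratio, linear axis from 0) in each library of MiaPaCa2 and PANC-1, by siRNA, with bars for group means (n = 3). The ratio averages 1.92 and 1.81 after siControl and 0.377 and 0.507 after siKCNN4 in MiaPaCa2 and PANC-1.

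The 5 groups took the same order of SLC7A5 in both lines. SLC7A5 was lowest after siKCNN4, followed by siS100A16, siControl, siMYEOV and siDDX60L, and no 2 neighbours in this order overlapped. After siDDX60L it held 181, 182 and 182 FPKM in MiaPaCa2 and 233, 218 and 220.0 in PANC-1, or 187 and 152% of siControl. After siMYEOV it held 149.7, 149 and 150.1 FPKM in MiaPaCa2 and 200.3, 199 and 208 in PANC-1, or 153 and 137%. After siS100A16 it held 71.0, 71.5 and 69.5 FPKM in MiaPaCa2 and 82.0, 81.1 and 81.1 in PANC-1, or 72.5 and 55.2%. All libraries of the first 2 siRNAs were thus above, and all of the third below, those of siControl. The summed ductal markers given above were lower than siControl in all libraries of siDDX60L and siMYEOV, and their part in these differences was not tested. Calls required an adjusted p below 0.05 (limma, Benjamini-Hochberg over all genes tested in the line) and a log2 fold change of at least 0.5 in either direction. In MiaPaCa2, SLC7A5 rose by 0.89 (SE 0.04, adjusted p = 1.6e-09) after siDDX60L and by 0.61 (adjusted p = 2.2e-08) after siMYEOV, while the difference of -0.46 (adjusted p = 4.3e-07) after siS100A16 was under the required size. With libraries rescaled by the median of ratios that difference was -0.51 and was called. In PANC-1, SLC7A5 fell by 0.85 on the log2 scale (SE 0.23, adjusted p = 0.0061) after siS100A16, and the difference after siMYEOV was 0.45 (adjusted p = 0.10). The rise of 0.60 after siDDX60L in PANC-1 (SE 0.23, adjusted p = 0.043) was not called with a pseudocount of 0.1 (adjusted p = 0.050), with no filter on low values (0.075), after rescaling (0.077) or without any single siDDX60L or siControl library (0.078 to 0.099). These SEs include the third siKCNN4 library through the shared spread. Without it the SE was 0.04 and the adjusted p values were 2.7e-07, 1.0e-06 and 9.9e-09 for siDDX60L, siMYEOV and siS100A16, and the siMYEOV difference was still under 0.5. All comparisons with siControl in a line share its 3 siControl libraries.

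SLC3A2 kept a narrower range than SLC7A5. In MiaPaCa2 it held 80.5, 60.4 and 61.9 FPKM after siDDX60L, 67.9, 58.5 and 68.5 after siMYEOV and 60.7, 54.7 and 60.7 after siS100A16. All 9 libraries were above those of siControl and the 3 groups overlapped each other. None was called, the differences being 0.40 (adjusted p = 0.0038), 0.35 (0.0063) and 0.21 (0.081). In PANC-1 it held 134, 122 and 107 FPKM after siDDX60L, 105, 126 and 124 after siMYEOV and 64.2, 66.9 and 68.6 after siS100A16. The first 2 groups overlapped each other and were above siControl, and the last was below it. SLC3A2 rose by 0.56 (SE 0.09, adjusted p = 0.00018) after siDDX60L and by 0.52 (adjusted p = 0.00018) after siMYEOV in PANC-1, and the difference after siS100A16 was -0.29 (adjusted p = 0.012). The call after siDDX60L was lost after rescaling (0.48) and without the first siDDX60L library (0.48). That after siMYEOV was lost without the first siControl library (0.48) or without the second or the third siMYEOV library (0.48 and 0.49). After siS100A16, SLC7A5 and SLC3A2 therefore took opposite sides of siControl in MiaPaCa2 and the same side in PANC-1. The difference between the lines in SLC3A2 was -0.50 (PANC-1 minus MiaPaCa2, adjusted p = 0.0061), just short of the required size, and was called with pseudocounts of 0.1 and 0.5 and after rescaling (-0.57).

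The ratio of SLC7A5 to SLC3A2 set the pair beside each other within each library. It was 1.92 ± 0.061 (SD, n = 3) in MiaPaCa2 and 1.81 ± 0.11 in PANC-1 after siControl. After siKCNN4 it was 0.377 ± 0.013 and 0.507 ± 0.20, the PANC-1 libraries spanning 0.274 to 0.625. These are differences of -2.35 and -1.93 in the log2 ratio, the latter -1.54 without the third library. After siS100A16 the ratio was 1.21 ± 0.086 and 1.22 ± 0.049, below every siControl library in both lines (log2 differences -0.67 and -0.56). After siDDX60L it was 2.73 ± 0.42 in MiaPaCa2 and 1.86 ± 0.17 in PANC-1, and after siMYEOV 2.31 ± 0.20 and 1.72 ± 0.17. In MiaPaCa2 all libraries of these siRNAs exceeded siControl (log2 differences 0.50 and 0.26), and in PANC-1 the groups overlapped siControl (0.04 and -0.07). In 6 two-sided exact permutation tests, the p was 0.1 for the 3 MiaPaCa2 differences and for siS100A16 in PANC-1, 0.7 for siDDX60L and 0.6 for siMYEOV in PANC-1. The adjusted values were 0.15 for the first 4 and 0.7 for the others, and 3 libraries against 3 cannot give a p below 0.1.

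The calls among the 10 carriers were set beside those among all genes. In MiaPaCa2 after siDDX60L, 2 of the 9 genes tested were called (SLC7A5 higher, SLC38A1 lower), where 16.1% of all 11875 genes tested were called. After siMYEOV 3 of 10 were called, 1 higher and 2 lower (26.7% of all genes), and after siS100A16 4 of 10, 1 higher and 3 lower (22.1%). SLC6A12 is counted as lower in both, with the limit given below for this gene. After siKCNN4, with no test, 3 of 10 were past 0.5 on the log2 scale, all lower, where 7.89% of all genes were lower by that size and 24.8% were past it in either direction. SLC38A1 (-0.82) was the gene beside SLC7A5 and SLC3A2. With a pseudocount of 0.1 the count was 5, since SLC7A11 (0.73) and SLC1A4 (0.52) were then past 0.5 on the higher side. In PANC-1 9 of the 10 genes passed the filter of a mean of 1 FPKM, SLC6A12 being the exception. Of these, 3 rose after siDDX60L (10.2% of all 12513 genes tested rose and 17.5% were called in either direction), 4 rose after siMYEOV (14.3% rose, 29.4% were called) and 2 fell after siS100A16 (8.94% fell, 25.4% were called). After siKCNN4 3 of 9 were past 0.5, SLC38A2 higher and SLC7A5 and SLC3A2 lower (28.3% of all genes). The median log2 fold change of the carriers beside that of all genes was -0.03 and 0.05 after siDDX60L, 0.06 and 0.11 after siMYEOV, -0.12 and 0.04 after siS100A16 and -0.27 and 0.09 after siKCNN4 in MiaPaCa2. In PANC-1 it was 0.10 and 0.07, 0.45 and 0.04, -0.19 and 0.09, and 0.05 and 0.02. The counts and medians after siKCNN4 include SLC7A5, whose low level there led to the choice of genes, and its partner SLC3A2. They are therefore no measure of an excess over all genes. Rescaling moved the median of all genes by -0.14 after siKCNN4 in MiaPaCa2 and by -0.11 after siS100A16 in PANC-1.

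**Figure D3:**
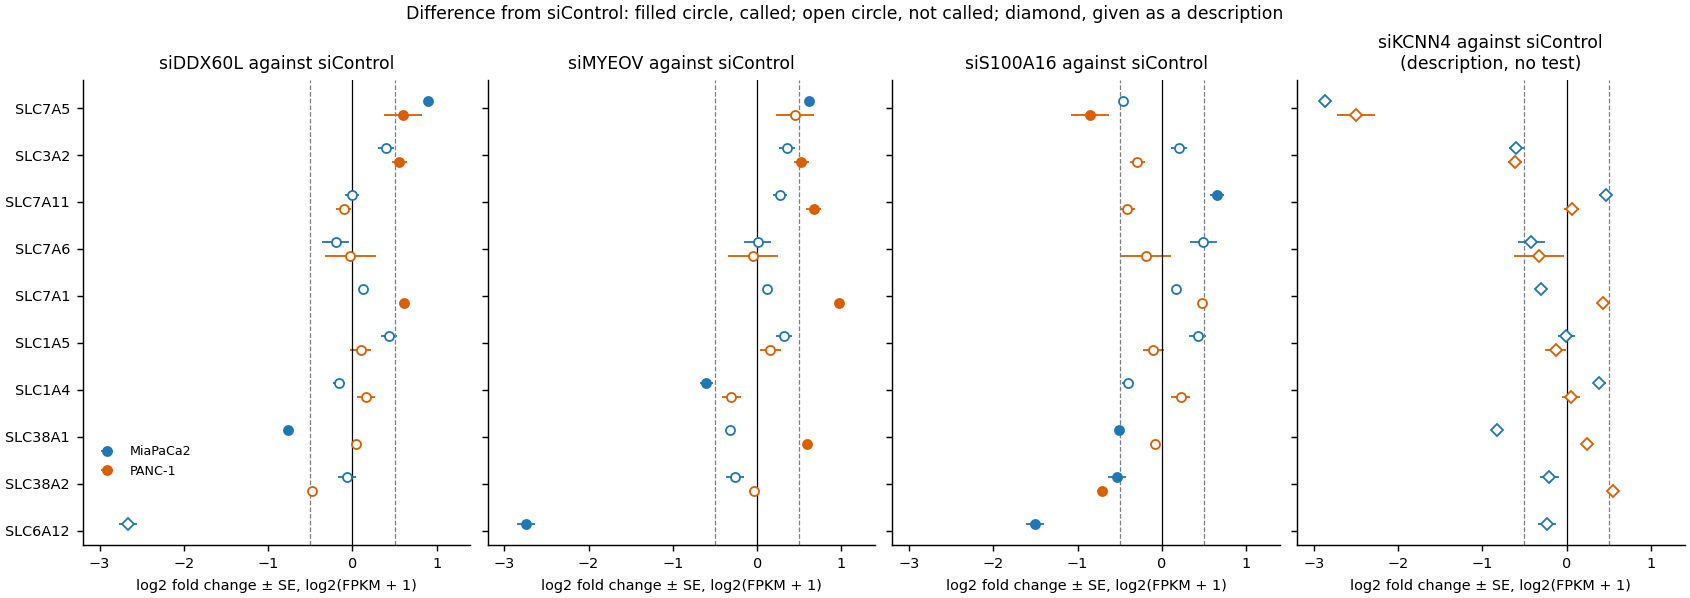
Log2 fold change against siControl on the log2(FPKM + 1) scale (x axis, with SE bars) of each gene for each siRNA, MiaPaCa2 in blue and PANC-1 in orange, with filled circles for calls, open circles for no call, diamonds for values given with no test, and dashed lines at 0.5 in each direction. SLC7A5 is at 0.89 and 0.60 after siDDX60L and at -2.86 and -2.50 after siKCNN4 in MiaPaCa2 and PANC-1.

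The remaining carriers that bind SLC3A2 are SLC7A11 and SLC7A6. SLC7A11 (xCT) exchanges glutamate for cystine, the source of cysteine for glutathione. In MiaPaCa2 it was near 1 FPKM after siControl (1.05, 1.11 and 1.12) and siDDX60L (1.27, 1.05 and 0.955) and reached 2.32, 2.27 and 2.29 FPKM after siS100A16. The siS100A16 libraries were above all others of the line, and SLC7A11 rose there by 0.65 (SE 0.08, adjusted p = 1.6e-05). It held 1.32, 1.46 and 1.82 FPKM after siMYEOV and 1.99, 1.74 and 1.92 after siKCNN4, 2 groups that overlapped each other and lay above siControl. The siMYEOV difference of 0.27 (adjusted p = 0.010) was not called. In PANC-1 the level was higher and the order was another. SLC7A11 held 6.18, 5.32 and 5.50 FPKM after siControl, 9.25, 10.5 and 9.10 after siMYEOV and 3.75, 4.12 and 4.14 after siS100A16. The siMYEOV libraries stood above and the siS100A16 libraries below all others of the line. It rose by 0.67 (SE 0.09, adjusted p = 2.5e-05) after siMYEOV, and the difference after siS100A16 was -0.41 (adjusted p = 0.0015), or -0.51 and called after rescaling. The siDDX60L and siKCNN4 libraries (4.79 to 5.74 and 5.21 to 6.57 FPKM) overlapped siControl.

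SLC7A6 (y+LAT2) exchanges cationic for neutral amino acids and was uneven between replicates. In MiaPaCa2 it ranged from 6.41 to 13.2 FPKM over the siControl, siDDX60L, siMYEOV and siKCNN4 libraries, whose groups overlapped in turn. After siS100A16 it held 16.6, 14.95 and 14.4 FPKM, above all of them, with a difference of 0.49 (SE 0.16, adjusted p = 0.019) that was just short of a call and passed with a pseudocount of 0.1 (0.53) or 0.5 (0.51). In PANC-1, 1 siDDX60L library (4.03 FPKM, mates 9.91 and 9.96) and 1 siKCNN4 library (3.15 FPKM, mates 7.82 and 7.76) stood low. The SE was 0.30 and no difference was called. SLC7A6 overlaps SLC7A6OS, as given above.

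SLC7A1 (CAT1), which takes up arginine and lysine without a partner protein, rose after 2 of the 3 tested siRNAs in PANC-1 and after none in MiaPaCa2. In MiaPaCa2 it held 23.7, 26.9 and 25.9 FPKM after siControl and 27.2 to 29.95 FPKM after siDDX60L, siMYEOV and siS100A16, with differences of 0.13, 0.12 and 0.17 that were not called. After siKCNN4 it was at 20.3, 21.0 and 20.4 FPKM, below siControl. In PANC-1 the siControl libraries (14.2, 14.9 and 15.4 FPKM) were the lowest of the line. All other groups were higher, siKCNN4 at 19.7, 20.6 and 21.1 FPKM and siS100A16 at 21.0, 21.0 and 21.4, which overlapped each other, then siDDX60L at 23.4, 23.1 and 22.9 and siMYEOV at 29.4, 30.1 and 30.3. SLC7A1 rose by 0.61 (SE 0.04, adjusted p = 1.2e-07) after siDDX60L and by 0.97 (SE 0.04, adjusted p = 8.7e-10) after siMYEOV in PANC-1. After siS100A16 the difference was 0.48 (adjusted p = 4.8e-07), or 0.51 and called with a pseudocount of 0.1. The gene holds 2 seed targets of siDDX60L, and their part in its levels was not tested.

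SLC1A5 (ASCT2) is a sodium-dependent exchanger of glutamine and other neutral amino acids. Its MiaPaCa2 levels were 67.9, 58.5 and 59.5 FPKM after siControl, 90.8, 73.6 and 88.4 after siDDX60L, 71.1, 74.9 and 87.2 after siMYEOV and 79.98, 86.9 and 83.1 after siS100A16. These 3 siRNAs were above siControl in every library and overlapped each other, while siKCNN4 (58.2, 59.0 and 68.3 FPKM) overlapped siControl. The differences of 0.43 (adjusted p = 0.0027), 0.32 (0.013) and 0.42 (0.0026) were under the required size. In PANC-1 all neighbouring groups overlapped, over 45.8 to 68.5 FPKM, and no difference was called.

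SLC1A4 (ASCT1), a carrier of serine, alanine and cysteine, was low in both lines. The MiaPaCa2 libraries held 2.33, 2.13 and 2.04 FPKM after siControl, 0.993, 1.23 and 1.04 after siMYEOV and 3.28, 3.17 and 3.00 after siKCNN4. No neighbouring groups overlapped in the line, the order being siMYEOV, siS100A16, siDDX60L, siControl and siKCNN4. SLC1A4 fell by 0.60 on the log2 scale (SE 0.07, adjusted p = 1.3e-05) after siMYEOV, to 50.2% of siControl, and the difference after siS100A16 was -0.40 (adjusted p = 0.00045), or -0.60 and called with a pseudocount of 0.1. In PANC-1 the siMYEOV libraries (1.58, 1.83 and 1.71 FPKM) were again the lowest and the other groups overlapped in turn. The siMYEOV difference of -0.30 (adjusted p = 0.028) was not called.

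SLC38A1 (SNAT1), like SLC38A2 a sodium-coupled carrier of glutamine, was lower than siControl in every library of the 4 targeting siRNAs in MiaPaCa2, and in PANC-1 only after siS100A16, by a small margin. In MiaPaCa2 it held 31.0, 30.5 and 31.0 FPKM after siControl, 17.1, 18.2 and 18.2 after siDDX60L, 24.7, 24.1 and 24.6 after siMYEOV and 21.0, 22.3 and 20.7 after siS100A16. After siKCNN4 it held 16.8, 17.0 and 17.2 FPKM, which overlapped siDDX60L. The other neighbouring groups were apart. SLC38A1 fell after siDDX60L (-0.76, SE 0.04, adjusted p = 1.3e-08) and after siS100A16 (-0.51, adjusted p = 2.7e-07). The latter was -0.49 and not called without the third siS100A16 library, and after siMYEOV the difference was -0.32 (adjusted p = 1.6e-05) and not called. In PANC-1 it held 32.2, 32.3 and 33.9 FPKM after siControl and 49.0, 51.4 and 48.9 after siMYEOV, the highest group. It rose by 0.59 (SE 0.05, adjusted p = 3.6e-07) after siMYEOV, was at 37.6, 40.0 and 39.5 FPKM after siKCNN4, and differed by 0.04 and -0.08 after siDDX60L and siS100A16 with no call. SLC38A1 holds 2 seed targets of siMYEOV, and their part in these levels was not tested.

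SLC38A2 (SNAT2), which amino acid shortage and hypertonic stress are known to raise, was the most abundant of the glutamine carriers under siControl. Its MiaPaCa2 values were 118, 116 and 122 FPKM after siControl and 78.0, 83.2 and 83.8 after siS100A16, the lowest group. The siMYEOV libraries (96.5, 101 and 98.2 FPKM) and siKCNN4 libraries (103, 101 and 104) lay between these, and 1 siDDX60L library at 146 FPKM stood above its mates at 100.3 and 99.9. SLC38A2 fell by 0.53 on the log2 scale (SE 0.11, adjusted p = 0.0011) after siS100A16 in MiaPaCa2, to 68.9% of siControl, which was -0.50 and just short of a call without the first siS100A16 library. In PANC-1 it held 109, 106 and 108 FPKM after siControl, 63.7, 66.6 and 65.2 after siS100A16 and 71.4, 80.4 and 79.97 after siDDX60L. Both siRNAs were below all siControl libraries and apart from each other. SLC38A2 fell by 0.72 on the log2 scale (SE 0.06, adjusted p = 3.4e-07) after siS100A16, and the siDDX60L difference was -0.48 (adjusted p = 2.0e-05), or -0.56 and called after rescaling. After siKCNN4 it was at 148, 161 and 168 FPKM, the highest of the line and 148% of siControl, where SLC7A5 was at its lowest.

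SLC6A12 (BGT1) carries betaine and GABA and is known to be raised by the osmotic stress factor NFAT5. MiaPaCa2 libraries held 10.7, 13.4 and 11.8 FPKM after siControl, 0.815, 1.28 and 1.05 after siDDX60L, and 1.16, 0.732 and 0.915 after siMYEOV. The last 2 groups overlapped each other at 8.78 and 7.82% of siControl. After siS100A16 it held 3.75, 3.74 and 3.19 FPKM (29.8%) and after siKCNN4 9.51, 9.72 and 10.7 (83.5%), each group apart from its neighbours, although the highest siKCNN4 library came close to the lowest of siControl. SLC6A12 fell after siMYEOV (-2.74, SE 0.11, adjusted p = 4.9e-10) and after siS100A16 (-1.50, adjusted p = 1.4e-07), and differed by -2.66 after siDDX60L with no test. The siMYEOV and siS100A16 comparisons use the siControl libraries that gave the difference known when the gene was chosen. The gene also passed the filter through its higher groups, its mean after siMYEOV being 0.935 FPKM. The p values of these comparisons are therefore no independent support for a fall. In PANC-1 all values were under 1 FPKM and were not tested. They were 0.518, 0.623 and 0.378 FPKM after siControl and at most 0.0963 after siDDX60L, siMYEOV and siS100A16, and SLC6A12 was listed at 0 in 2 of the 3 siMYEOV libraries. The siMYEOV, siDDX60L and siS100A16 groups overlapped in turn and lay below siKCNN4 (0.161 to 0.345 FPKM), which lay below siControl. SLC6A12 holds 1 seed target of siMYEOV and none of siDDX60L, and the part of a seed match in its levels was not tested.

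The siRNAs were also compared with each other. In MiaPaCa2, siMYEOV against siDDX60L gave 0 of 9 calls by limma (22.4% of all genes were called), although 4 genes had an unadjusted p below 0.05. Among them SLC7A5 differed by -0.28 (adjusted p = 3.6e-05), SLC1A4 by -0.45 (adjusted p = 0.00020) and SLC38A1 by 0.44 (adjusted p = 1.2e-06), all under the required size. SLC1A4 was called, at -0.71 and -0.56, with pseudocounts of 0.1 and 0.5. SLC7A5 was lower after siS100A16 than after siDDX60L by -1.35 (adjusted p = 4.3e-11), and SLC7A11 (0.66) and SLC7A6 (0.69, adjusted p = 0.0025) were higher, 3 of 9 in all (23.6%). SLC7A5 was also lower after siS100A16 than after siMYEOV by -1.07 (adjusted p = 1.4e-10), and SLC6A12 was higher by 1.24 (adjusted p = 5.8e-07), 2 of 10 in all (28.0%). In PANC-1, siMYEOV exceeded siDDX60L in SLC7A11 (0.77, adjusted p = 9.0e-06) and SLC38A1 (0.55, adjusted p = 1.0e-06), 2 of 9 (23.8% of all genes were called and 9.08% were higher). SLC7A5 and SLC3A2 did not differ there by a call (-0.14, adjusted p = 0.61, for SLC7A5, which was 0.0071 without the third siKCNN4 library). Against siDDX60L, siS100A16 was lower in SLC7A5 (-1.45, adjusted p = 0.00013) and SLC3A2 (-0.85, adjusted p = 3.5e-06), 2 of 9 (24.0% were called and 10.2% were lower). Against siMYEOV it differed in 6 of 9 (28.5%), with SLC7A5 (-1.30), SLC3A2 (-0.82), SLC7A11 (-1.08), SLC38A1 (-0.67) and SLC38A2 (-0.68) lower and SLC1A4 (0.53, adjusted p = 0.0010) higher. SLC1A4 was not called after rescaling (0.45), without the first siMYEOV library (0.49) or without the third siS100A16 library (0.45).

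Under siControl, 4 of the 9 genes other than SLC6A12 differed between the lines, where 54.8% of all 13304 genes tested did. SLC7A5 (0.59, adjusted p = 0.0029), SLC3A2 (0.68, adjusted p = 5.8e-07) and SLC7A11 (1.67, adjusted p = 4.3e-15) were higher in PANC-1. SLC7A1 (-0.74, adjusted p = 2.5e-14) was lower in PANC-1. SLC6A12, which passed the filter only through MiaPaCa2, is given by its levels alone, with 10.7 to 13.4 FPKM there against 0.378 to 0.623 in the PANC-1 libraries. The glutamine carriers SLC1A5 (-0.14), SLC38A1 (0.09) and SLC38A2 (-0.14), and SLC1A4 (0.08) and SLC7A6 (-0.43, adjusted p = 0.12), were not called.

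The effect of an siRNA in PANC-1 minus that in MiaPaCa2 was tested for 9 genes. For siDDX60L it was called in 1 (9.98% of the 11084 genes tested in both lines), SLC38A1 at 0.80 (adjusted p = 1.4e-09), which fell in MiaPaCa2 and was at 103% of siControl in PANC-1. For siMYEOV it was called in 2 (15.4%), SLC7A1 at 0.85 (adjusted p = 8.3e-11) and SLC38A1 at 0.91 (adjusted p = 6.2e-11). For siS100A16 it was called in 3 (11.8%), SLC7A11 at -1.07 (adjusted p = 3.1e-07), SLC1A5 at -0.52 (adjusted p = 0.017) and SLC1A4 at 0.62 (adjusted p = 0.00078). The SLC1A5 value was between -0.50 and -0.47 and not called without any 1 of 5 libraries, namely the second or the third siControl library or the second siS100A16 library of MiaPaCa2, or the second or the third siS100A16 library of PANC-1. SLC7A5 was not called for any of the 3 siRNAs. Its differences between the lines were -0.30 (adjusted p = 0.40) for siDDX60L, -0.16 (0.65) for siMYEOV and -0.39 (0.24) for siS100A16. Without the third PANC-1 siKCNN4 library the adjusted p values were 0.00011, 0.015 and 2.9e-06, with sizes that were still under 0.5.

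SLC7A5 and SLC3A2 had Pearson r of 0.922 in MiaPaCa2 and 0.904 in PANC-1 over the 15 libraries of log2(FPKM + 1), which share 5 groups. Without the siKCNN4 libraries r was 0.559 and 0.932 over 12 libraries. The genes most like a given gene were ranked by the smaller r of the 2 lines among 11083 genes, as a description that includes the siKCNN4 libraries. For SLC7A5 they were RPRD2 (0.969), PRKX (0.933), SAP130 (0.931), ASH1L (0.931) and PKIG (0.929), and SLC3A2 ranked 23. PKIG, which encodes an inhibitor of protein kinase A, averaged 10.5 FPKM after siControl and 3.50 after siKCNN4 in MiaPaCa2, and 31.2 and 9.07 in PANC-1. For SLC3A2 they were IARS (0.932), SLC7A5 (0.904), EIF4H (0.898), PGAM1 (0.896) and TMEM126A (0.882). IARS, which charges the tRNA of isoleucine, averaged 45.6 FPKM after siControl in PANC-1, 64.2 and 64.5 after siDDX60L and siMYEOV, 31.7 after siKCNN4 and 43.6 after siS100A16.

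Genes around the carriers were followed in 8 lists, and their counts are set beside the share of all genes called. The lists were chosen with earlier results of these data known. A share above that of all genes is therefore a description and no measure of an excess. In MiaPaCa2, 8.77% of all genes rose and 7.28% fell after siDDX60L, 16.3% rose and 10.4% fell after siMYEOV, and 12.4% rose and 9.63% fell after siS100A16. In PANC-1, 10.2% rose and 7.34% fell after siDDX60L, 14.3% rose and 15.1% fell after siMYEOV, and 16.5% rose and 8.94% fell after siS100A16. After siKCNN4, 16.9% were past 0.5 higher and 7.89% lower in MiaPaCa2, and 14.6 and 13.6% in PANC-1.

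Among the 20 cytosolic aminoacyl-tRNA synthetases, which load amino acids onto tRNAs, 5, 5 and 4 rose after siDDX60L, siMYEOV and siS100A16 in MiaPaCa2 and 6, 10 and 5 in PANC-1, and none fell. Between 20 and 50% of the list thus rose in a comparison, above the share of all genes that rose in each, but with few genes behind each count. Their median log2 fold change was 0.24, 0.26 and 0.20 in MiaPaCa2 and 0.33, 0.50 and 0.29 in PANC-1, where the medians of all genes were between 0.04 and 0.11. HARS, for histidine, rose by 0.75, 0.91 and 0.83 in MiaPaCa2, and by 0.73 and 0.99 after siDDX60L and siMYEOV in PANC-1. SARS, for serine, rose by 1.00 (adjusted p = 3.4e-10) after siMYEOV in PANC-1. After siKCNN4 the median was -0.13 and -0.18, with 1 synthetase past 0.5 higher and 3 lower in MiaPaCa2 and 1 higher and 4 lower in PANC-1.

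Of the ATF4 and amino acid stress genes, 18 were tested in MiaPaCa2 and 19 in PANC-1. After siDDX60L, siMYEOV and siS100A16, 4, 5 and 5 rose in MiaPaCa2, and 8, 9 and 5 rose in PANC-1, against 1, 1 and 2 that fell in MiaPaCa2 and 1 each in PANC-1. In MiaPaCa2 these are 22.2, 27.8 and 27.8% of the list rising, beside 8.77, 16.3 and 12.4% of all genes, and in PANC-1 42.1, 47.4 and 26.3%, beside 10.2, 14.3 and 16.5%. TRIB3, a pseudokinase that ATF4 induces, rose in all 6 comparisons, by 1.43, 1.17 and 1.54 in MiaPaCa2 and by 1.57, 2.18 and 1.36 in PANC-1. ASNS, which makes asparagine, rose by 0.65 (adjusted p = 8.9e-05) and 1.05 (adjusted p = 2.5e-09) after siMYEOV. PHGDH, the entry enzyme of serine synthesis, rose by 1.02 and 1.19 after siDDX60L. SHMT2, which makes glycine from serine in mitochondria, fell after siS100A16 (-1.39 and -0.88). After siKCNN4, with no test, 3 were past 0.5 higher and 3 lower in MiaPaCa2, 16.7% of the list each, beside 16.9 and 7.89% of all genes. In PANC-1, 1 was higher and 7 were lower, 5.26 and 36.8% of the list, beside 14.6 and 13.6% of all genes. The median of the list there was -0.32, beside 0.02 for all genes. CEBPB was lower (-1.51 in PANC-1) and TRIB3 higher (0.86 and 0.71).

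**Figure D4:**
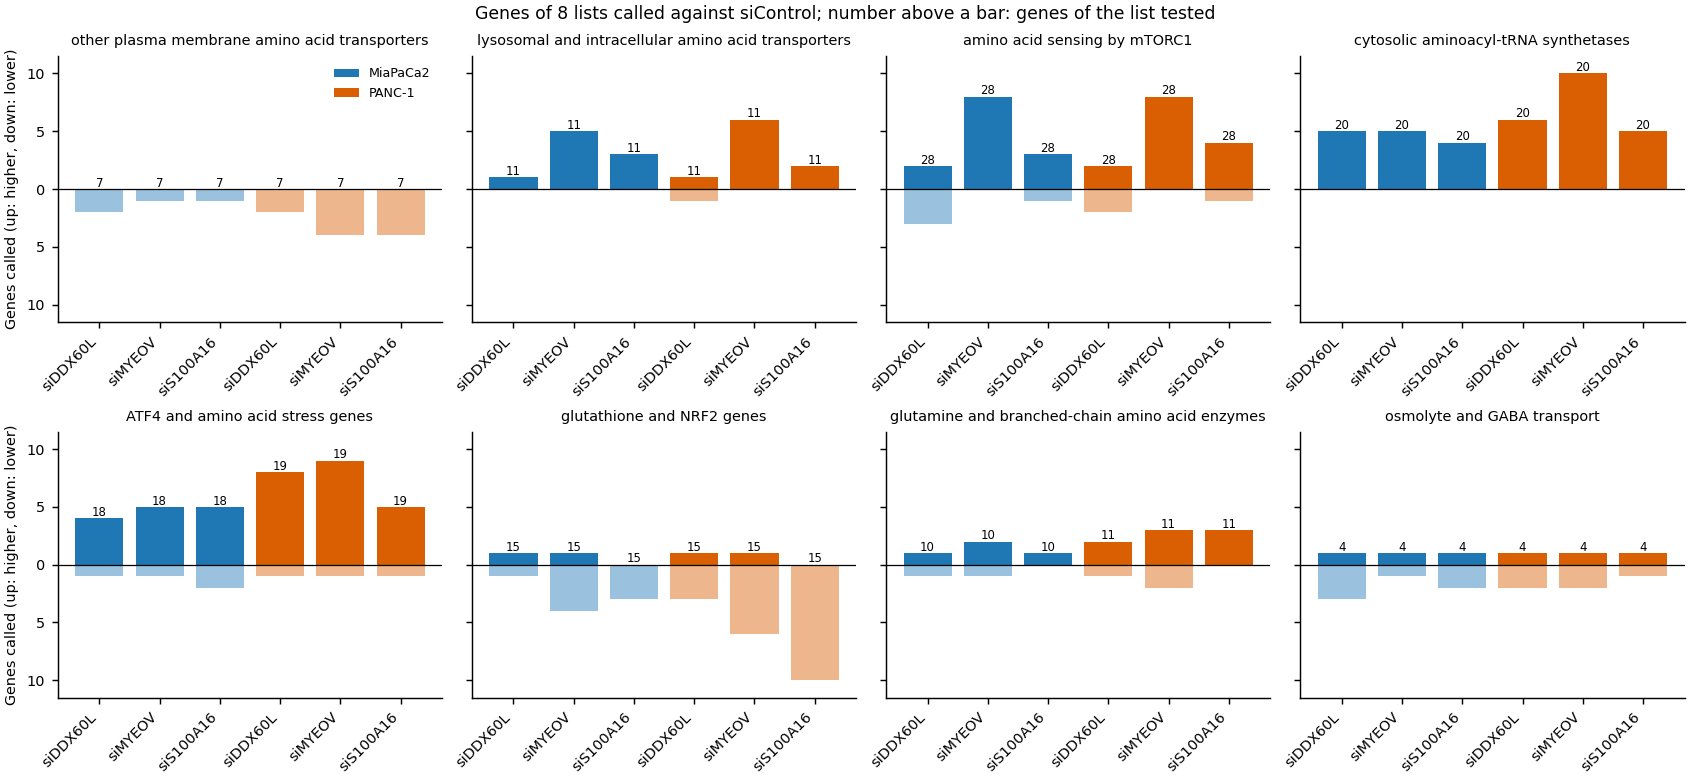
Genes of each of the 8 lists called higher (upward bars) and lower (downward bars) than siControl after siDDX60L, siMYEOV and siS100A16 in MiaPaCa2 (blue) and PANC-1 (orange), with the number of genes tested printed at each bar. No aminoacyl-tRNA synthetase is called lower, and 10 of 15 glutathione and NRF2 genes are lower after siS100A16 in PANC-1.

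Of 28 genes tested for amino acid sensing by mTORC1, 8 rose and none fell after siMYEOV in each line, RRAGB, a Rag GTPase, by 1.18 and 1.44. This is 28.6% of the list, beside 16.3 and 14.3% of all genes that rose. After siDDX60L 2 rose and 3 fell in MiaPaCa2 and 2 rose and 2 fell in PANC-1, 17.9 and 14.3% of the list, which is near the 16.1 and 17.5% of all genes called. LAMTOR5, a Ragulator subunit, fell (-1.79 and -1.50), and the leucine sensor SESN2 rose by 0.59 and 0.69. After siS100A16 3 and 4 rose, and SESN1 (-0.69 and -0.86) was the 1 that fell in each line, so 14.3 and 17.9% of the list were called, below the 22.1 and 25.4% of all genes. After siKCNN4 9 were past 0.5 higher and 4 lower in MiaPaCa2, and 5 and 4 in PANC-1, with RHEB, the GTPase that activates mTORC1, at -1.54 and -1.38.

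Of 21 other plasma membrane carriers only 7 passed the filter in each line, and none rose after the 3 tested siRNAs. After siDDX60L, siMYEOV and siS100A16, 2, 1 and 1 fell in MiaPaCa2 and 2, 4 and 4 in PANC-1. A single gene is 14.3% of these 7, near the 10.4 and 9.63% of all genes that fell after siMYEOV and siS100A16 in MiaPaCa2, while 4 are 57.1%, beside 15.1 and 8.94% in PANC-1. SLC36A1, a proton-coupled carrier of small amino acids that also sits on lysosomes, fell after siDDX60L (-0.78 and -0.68). SLC43A2 (LAT4), another leucine carrier, was at -0.90 and -1.34 after siKCNN4. Of 11 carriers of lysosomes and other organelles, 1, 5 and 3 rose in MiaPaCa2 and 1, 6 and 2 in PANC-1, and 1 fell, SLC15A4 (-0.55) after siDDX60L in PANC-1. The 1 that rose after siDDX60L in each line is 9.09% of the list, near the 8.77 and 10.2% of all genes, as is the 18.2% after siS100A16 in PANC-1 beside 16.5%, whereas 45.5 and 54.5% rose after siMYEOV, beside 16.3 and 14.3%. SLC25A13, the mitochondrial aspartate and glutamate exchanger, rose by 0.61, 0.66 and 0.60 in MiaPaCa2.

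Among the 15 glutathione and NRF2 genes, some of which make or use glutathione, a peptide built from cysteine, while others are targets of the transcription factor NRF2, 10 fell and none rose after siS100A16 in PANC-1 (median -0.82), and 3 fell and none rose in MiaPaCa2 (median 0.02). The first is 66.7% of the list, beside 8.94% of all genes that fell. In MiaPaCa2 the 3 genes are 20% of the list, beside 9.63% of all genes that fell and 22.1% called in either direction. The quinone reductase NQO1 fell in both lines (-1.37 in MiaPaCa2 and -1.35 in PANC-1). After siMYEOV 4 fell and 1 rose in MiaPaCa2 and 6 fell and 1 rose in PANC-1, among them glutathione reductase, GSR (-1.25 and -1.55). Those that fell are 26.7 and 40.0% of the list, beside 10.4 and 15.1% of all genes. After siDDX60L 1 fell and 1 rose in MiaPaCa2, and 3 fell and 1 rose in PANC-1, 13.3 and 26.7% of the list in either direction, beside 16.1 and 17.5% of all genes. After siKCNN4, with no test, 2 were past 0.5 higher and 1 lower in MiaPaCa2 (median 0.01). In PANC-1, 1 was higher and 5 were lower (median -0.41). The lower genes are 6.67 and 33.3% of the list, beside 7.89 and 13.6% of all genes.

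Of the glutamine and branched-chain amino acid enzymes, 10 were tested in MiaPaCa2 and 11 in PANC-1. After siDDX60L, glutamate dehydrogenase, GLUD1, fell (-1.34 and -1.22) and the alanine aminotransferase GPT2 rose (1.02 and 1.18). BCKDK, the kinase that switches off branched-chain keto acid breakdown, fell after siMYEOV (-1.22 and -1.25). In all, 1 rose and 1 fell after siDDX60L, 2 rose and 1 fell after siMYEOV and 1 rose after siS100A16 in MiaPaCa2. These are 20, 30 and 10% of the list, near or below the 16.1, 26.7 and 22.1% of all genes called. In PANC-1 2 rose and 1 fell, 3 rose and 2 fell, and 3 rose after the same siRNAs. With so few genes, the share called in either direction, 27.3% after siDDX60L and siS100A16 and 45.5% after siMYEOV in PANC-1, beside 17.5, 25.4 and 29.4% of all genes, rests on 3 to 5 genes.

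Of 9 osmolyte and GABA genes, set beside SLC6A12, 4 were tested, too few to read against the share of all genes. SLC6A8, the creatine carrier, rose after all 3 siRNAs in both lines, by 0.60, 1.05 and 0.98 in MiaPaCa2 and by 0.79, 1.51 and 1.34 in PANC-1. AKR1B1, which makes sorbitol, fell in all 6 comparisons, with differences of -0.79, -0.78 and -0.54 and of -0.61, -1.80 and -0.81. NFAT5 fell after siDDX60L in both lines, in PANC-1 by 1.20 on the log2 scale (adjusted p = 0.0021, and 0.015 in MiaPaCa2), and after siMYEOV in PANC-1 (-0.73, adjusted p = 0.030). The inositol carrier SLC5A3 fell in MiaPaCa2 after siDDX60L (-0.94) and siS100A16 (-0.65).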

How the data were processed

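Per the labels, Trizol was used to isolate total RNA and an Illumina TruSeq kit to make the libraries. Other kits for extraction and for a strand-specific library are named in the study's methods, a difference that was not resolved. TopHat2 2.0.12 and build GRCh37 are named in the submitters' processing notes. Per library, the authors deposited FPKM values, whose program and strand setting are not given in the sources. Each library was set against the first siControl library of its line, for genes below 0.3 FPKM in both. After scaling for depth, 14.3 to 19.1% of these genes had a ratio within 0.05 of a whole number. Whole reads were not recovered in this way, so no count test was run.

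The scale was log2(FPKM + 1). Tests covered genes whose mean over the 15 libraries of a line reached 1 FPKM, with limma 3.58.1 in R 4.3.3 (5 group means, empirical Bayes with trend, Benjamini-Hochberg adjustment), 11875 in MiaPaCa2 and 12513 in PANC-1. Lines were compared in a model of all 30 libraries. Calls needed an adjusted p below 0.05 and 0.5 on the log2 scale. The code was tested on simulated data. Of the symbols, 17 belonged to several identifiers, none of them a transporter gene described here. Sequences came from RefSeq promoters (GRCh38.p14), the GRCh37 annotation and the study's siRNA list, read with Python 3.11.15 and pandas 2.3.3. Permutation tests went through every split of the libraries compared, with numpy 2.4.6.

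The genes and lists were chosen with earlier results of these data known. Named genes were the 10 transporters, the 4 targets, the 5 genes most like SLC7A5 and the 5 most like SLC3A2, and up to 4 called genes per list and comparison with the largest change. Alternatives were pseudocounts of 0.1 and 0.5, no filter, median-of-ratios scaling, only the groups compared, a replicate block, and leaving out each library. Leaving out PANC-1 siKCNN4 replicate 3 in the other PANC-1 comparisons was added after seeing the data.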

Additional observations from a re-analysis of the deposited data

Results flagged for a closer look

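The effect of the same siRNA differed between PANC-1 and MiaPaCa2 for 6 results by the limma interaction test (PANC-1 minus MiaPaCa2, log2 scale, adjusted over 11084 genes). SLC38A1 differed by 0.8011 for siDDX60L, being at 57.7% of siControl in MiaPaCa2 and 103% in PANC-1, and by 0.9086 for siMYEOV, being at 79.4 and 152%. SLC7A1 differed by 0.8461 for siMYEOV, being at 109% of siControl in MiaPaCa2 and 202% in PANC-1. For siS100A16, SLC7A11 differed by -1.0662, with higher values than siControl in all 3 MiaPaCa2 libraries and lower values in all 3 PANC-1 libraries. SLC1A4 differed by 0.6234 for siS100A16, at 64.6% of siControl in MiaPaCa2 and 124% in PANC-1. SLC1A5 differed by -0.5240 for siS100A16, at 135 and 93.7%, a result that 5 single libraries decide, as given with its test. The cell lines also differ in their siControl level of SLC7A1 and SLC7A11, and the part of that difference in these results was not tested.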

How the results depend on the processing

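Of 308 alternative values of the 26 counts and ratios, 298 carried the label unmoved, which is no measure of stability. The tested ratios took this label whatever their value, and counts took it unless they changed by a large factor. The count after siS100A16 in MiaPaCa2, 4 in the main setting, kept it at up to 6. The log2 ratio of SLC7A5 to SLC3A2 after siDDX60L in PANC-1 (0.04, no call) ranged from -0.03 to 0.08 without single libraries. The count after siKCNN4 in MiaPaCa2 was 5 with a pseudocount of 0.1, SLC7A11 and SLC1A4 being added on the higher side. The count for siMYEOV against siDDX60L in MiaPaCa2 was 1 with pseudocounts of 0.1 and 0.5, and that for siS100A16 against siMYEOV was 4 with 0.1. The count for the siDDX60L effect between the lines was 2 with 0.1, and 1 to 2 without single libraries. Without single libraries, the count after siDDX60L in PANC-1 was 1 to 3. Of 2293 values of single genes, 2196 kept their side of the threshold or stayed within the spread, 24 lost a call, 51 gained one and 22 moved. Samples with the same replicate number did not deviate together (r from -0.055 to 0.160, 8 of 24 libraries closest to their own number). With the replicate block all 18 counts of transporter genes were unmoved, and 1903 in place of 1907 genes were called for siDDX60L in MiaPaCa2. With no filter, 2588 in place of 1705 genes were called for the siMYEOV effect between the lines and 2018 in place of 1312 for siS100A16. Rescaling changed the share of higher calls among all genes in MiaPaCa2. It went from 61.0 to 47.3% for siMYEOV and, by the same calls, from 68.9 to 45.7% for siKCNN4. In PANC-1 it changed from 58.1 to 43.4% for siDDX60L, from 64.8 to 46.8% for siS100A16 and from 65.1 to 51.1% for siS100A16 against siMYEOV. For the effects between the lines it changed from 33.9 to 52.8% for siMYEOV and from 67.9 to 52.4% for siS100A16. The causes were not tested. The depth behind single values, also those near or below 1 FPKM, is unknown.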
